A study of Mus musculus with 4 samples.

Results

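The genes described here are 10 enzymes and regulators of the NRF2 antioxidant and glutathione system, measured by 15 probe sets of a mouse expression array: Nqo1, Hmox1, Gclc, Gclm, Txnrd1, Srxn1, Gsr, Gstm1, Gsta4 and Osgin1. They were chosen by probe set number, with the gene of each number given in advance, and all 15 were found among the 45101 probe sets of the table. The deposited table itself pairs no probe set with a gene. A single probe set measured each of 6 genes, and the other 4 genes had several.

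The arrays compare mouse fibroblasts of the C57BL/6 strain that were wild type with fibroblasts in which the SIN1 gene was ablated (SIN1 KO), with 2 arrays per genotype. SIN1, the product of Mapkap1, is a subunit of mTOR complex 2, the kinase complex that phosphorylates AKT. Cells of both genotypes were grown in DMEM and no other treatment is named. A label attributes altered metabolism to the SIN1 KO cells. The labels abbreviate the cells as MEFs but spell the name as epithelial rather than embryonic fibroblasts. They give no age, and nothing in them tells whether arrays of 1 genotype stand for independent cultures or lines, so every p-value reflects array-to-array spread that could be purely technical. Fibroblast markers and Mapkap1 itself were not analysed here, so neither the cell type nor the genotype was checked against the data.

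NRF2 (encoded by Nfe2l2) is a transcription factor that the adaptor KEAP1 keeps low by sending it for degradation. Oxidants and electrophiles release it, and with a small MAF protein it binds antioxidant response elements in genes for quinone reduction, heme breakdown, glutathione synthesis and use, and thioredoxin recycling. AKT can restrain GSK3, a kinase that can also mark NRF2 for degradation. Whether this links mTOR complex 2 to these genes in the cells studied here was not tested.

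Promoter sequences are shown for the kind of element through which NRF2 targets can respond together. The members' differences between genotype means did not share a direction here. RefSeq promoter windows of assembly GRCm38.p6, running from 250 bases before to 50 bases after a transcription start, were used for 6 of the 10 genes (Nqo1, Gclm, Txnrd1, Srxn1, Gstm1 and Osgin1), 9 windows in all because Txnrd1 has 3 starts and Gstm1 has 2. The core TGACNNNGC, searched on both strands, occurred in 3 of the 9 windows and in 12.4% of all 32851 windows. The AP-1 type site TGAGTCA, also searched on both strands, occurred in 2 of the 9 and in 5.2% of all. A further form of the element, TGAGNNNGC, was searched after the windows had been seen. It occurred in 2 of the 9 windows, Srxn1 and Osgin1, and in 17.6% of all windows. In Osgin1 its match overlaps the AP-1 site. In Srxn1, the match 45 bases before the start overlaps an AP-1 site, while a further match 158 bases before the start and a further AP-1 site 102 bases before it stand apart and are not shown. Each sequence reads 5′ to 3′ on the gene's strand and ends before the transcription start, with the match in capitals.
Srxn1, chr2:152105453-152105513, plus strand: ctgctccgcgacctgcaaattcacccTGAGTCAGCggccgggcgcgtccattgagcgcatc
Osgin1, chr8:119437022-119437082, plus strand: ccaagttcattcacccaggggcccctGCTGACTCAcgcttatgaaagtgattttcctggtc
Txnrd1, chr10:82859088-82859148, plus strand: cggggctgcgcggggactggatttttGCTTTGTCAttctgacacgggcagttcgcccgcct
Gclm, chr3:122245397-122245457, plus strand: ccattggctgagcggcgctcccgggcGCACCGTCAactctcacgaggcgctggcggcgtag
The Osgin1 match is TGAGTCAGC on the opposite strand, the same 9 letters as in Srxn1. Of these genes, Osgin1 was higher on both SIN1 KO arrays, Txnrd1 had a lower SIN1 KO mean on both of its probe sets, and Srxn1 and Gclm overlapped between genotypes. The windows of Nqo1 and Gstm1 held none of the forms searched, and their SIN1 KO means were higher on every probe set. Sequence outside the windows was not searched. A match of letters is a description and not evidence that a factor binds there. The remaining TGACNNNGC match, in Srxn1, lies after the transcription start and is not shown.

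Expression is given as log2 values, so a difference of 1 is a 2-fold change of the array signal. In RNA from whole cultures, fewer cells of a type and less RNA per cell cannot be told apart. In the SIN1 KO mean 9 of the 15 probe sets were higher and 6 lower, beside 53.9% higher over all 45037 probe sets tested. Their median log2 fold change was 0.13, beside 0.04 over all. It was -0.13 without wild type 2 and -0.037 without the probe sets whose ID has the suffix s or x. None passed limma's test at an adjusted p of 0.05, where 0% of all probe sets passed, and the members' adjusted p lay between 0.82 and 0.978. At an unadjusted p under 0.05, 0 of the 15 passed in limma's test, against 5.57% of all. Both SIN1 KO arrays lay above both wild type arrays for 4 members (Nqo1, Osgin1, 1 of 2 Gsr probe sets and 1 of 3 Gstm1 probe sets), against 20.4% of all probe sets in that direction. They lay below for 1, a Txnrd1 probe set, against 14.9% of all. The total of 5 in 15 (33.3%) is close to the 35.3% of all probe sets. The plot of values by array shows these patterns gene by gene.

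**Figure D1:**
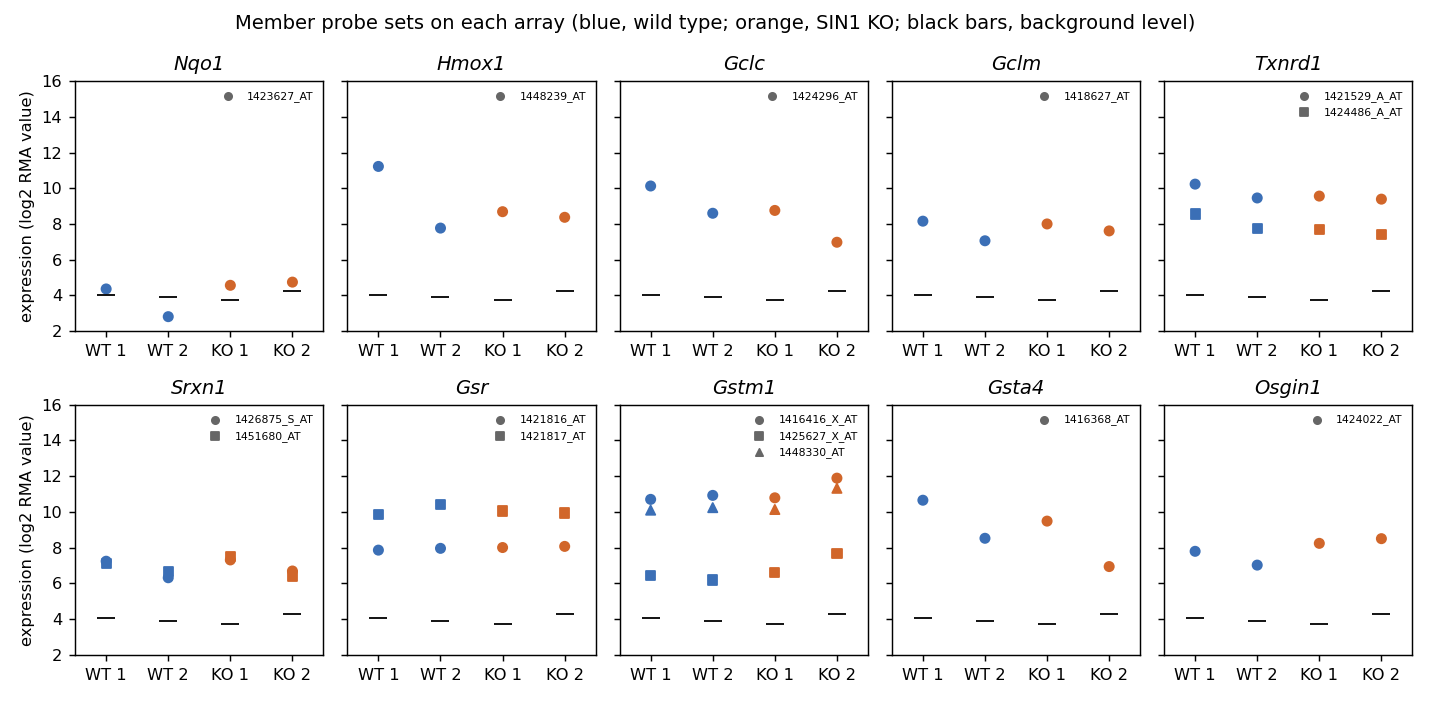
Log2 RMA value (vertical axis) of each member probe set on the 4 arrays (horizontal axis), 1 panel per gene, with wild type (WT) in blue, SIN1 KO (KO) in orange, a marker shape per probe set and black bars at each array's background level. Hmox1 stands at 11.22 on wild type 1 and between 7.77 and 8.69 on the others, Gstm1 is highest on SIN1 KO 2 in all 3 probe sets, and Nqo1 alone reaches the background level.

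Osgin1, an oxidative stress-induced growth inhibitor and NRF2 target, separated the genotypes by the widest gap among the members. Its values were 7.80 and 7.03 on the wild type arrays and 8.24 and 8.51 on the SIN1 KO arrays. Both SIN1 KO arrays were above both wild type arrays, by at least 0.45. The wild type mean was 7.41 ± 0.55 and the SIN1 KO mean 8.37 ± 0.19 (SD, n = 2). The log2 fold change was 0.96 (SE 0.37, 95% interval -0.02 to 1.95), which is 1.95-fold, with an unadjusted p of 0.0532 and an adjusted p of 0.82 in limma's test. It stayed between 0.58 and 1.35 when any 1 array was left out, where its sign could not change because the genotypes did not overlap. A difference of this size or more, in either direction, was found for 10.7% of all probe sets.

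Nqo1, the quinone reductase often read as the standard output of NRF2, lay near background, so the size of its difference is uncertain. Its values were 4.36 and 2.81 on the wild type arrays and 4.57 and 4.75 on the SIN1 KO arrays. The background level of an array was taken as its highest Bacillus subtilis control, which was 4.05 and 3.91 for wild type and 3.75 and 4.27 for SIN1 KO. Nqo1 was thus above it on 3 arrays and below it on wild type 2. The log2 fold change of 1.07 (SE 0.58, limma adjusted p 0.82) was 0.52 with the wild type 2 value raised to that array's background, below the 0.96 of Osgin1, and was 0.29 with wild type 2 left out. The other 14 probe sets were above background on all 4 arrays, with a lowest value of 6.20.

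Hmox1 encodes heme oxygenase, which breaks down heme and is held in check by the repressor BACH1. It measured 11.22 and 7.77 on the wild type arrays and 8.69 and 8.37 on the SIN1 KO arrays. The wild type arrays lay on either side of both SIN1 KO arrays and differed from each other 10.9-fold, a gap of 3.45 that only 0.315% of all probe sets reached. The log2 fold change of -0.97 (SE 1.20, 95% interval -4.17 to 2.24, limma adjusted p 0.868) rests on wild type 1. It became 0.76 without wild type 1 and -2.69 without wild type 2. The SIN1 KO arrays differed by 0.31.

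Glutathione synthesis begins with glutamate-cysteine ligase, made of the catalytic subunit Gclc and the modifier subunit Gclm. The subunits did not differ between genotypes in the same way. Gclc measured 10.13 and 8.60 on the wild type arrays and 8.76 and 6.98 on the SIN1 KO arrays. Wild type 1 was highest and SIN1 KO 2 lowest, with SIN1 KO 1 just above wild type 2, so the genotypes overlapped by 0.16. Its log2 fold change of -1.49 (SE 0.83, 95% interval -3.72 to 0.73, limma adjusted p 0.82) was the most negative among the members. It stayed negative with any 1 array left out, from -2.38 without SIN1 KO 1 to -0.60 without SIN1 KO 2. Gclm measured 8.16 and 7.06 on the wild type arrays and 8.0 and 7.61 on the SIN1 KO arrays, with both SIN1 KO values between the wild type values. Its log2 fold change was 0.20 (SE 0.46, limma adjusted p 0.934), and it was -0.35 without wild type 2. The difference between the changes of the subunits was not tested.

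Glutathione transferases attach glutathione to electrophiles, and Gsta4 acts mainly on products of lipid peroxidation. Gsta4 measured 10.66 and 8.53 on the wild type arrays and 9.49 and 6.94 on the SIN1 KO arrays. The order of the arrays was that of Gclc: wild type 1, SIN1 KO 1, wild type 2, SIN1 KO 2. The arrays of a genotype were 2.13 apart in wild type and 2.54 apart in SIN1 KO, gaps that 2.04% and 0.964% of all probe sets reached. The log2 fold change of -1.38 (SE 1.15, limma adjusted p 0.826) was smaller than either gap. It was -0.10 without SIN1 KO 2 and -0.31 without wild type 1, but -2.65 without SIN1 KO 1 and -2.44 without wild type 2.

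Gstm1, a mu-class transferase, had a higher SIN1 KO mean on all 3 of its probe sets. Probe set 1448330_AT measured 10.10 and 10.24 on the wild type arrays and 10.14 and 11.32 on the SIN1 KO arrays. SIN1 KO 2 stood alone above the other 3 arrays, which lay within 0.14. Probe set 1416416_X_AT had the same pattern, at 10.70 and 10.93 on the wild type arrays and 10.79 and 11.89 on the SIN1 KO arrays. Probe set 1425627_X_AT, at 6.46 and 6.20 on the wild type arrays and 6.60 and 7.67 on the SIN1 KO arrays, was the one whose genotypes did not overlap, by 0.15. The log2 fold changes were 0.56 (SE 0.47), 0.53 (SE 0.45) and 0.81 (SE 0.44), with limma adjusted p between 0.82 and 0.826. Without SIN1 KO 2 they were -0.033, -0.025 and 0.28. The suffix x of the last pair of probe sets marks probes that can bind transcripts of other genes, and the mu class has close relatives, so these values may include them. On SIN1 KO 2, Gstm1 was at its highest of the 4 arrays on each probe set and Gsta4 at its lowest.

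**Figure D2:**
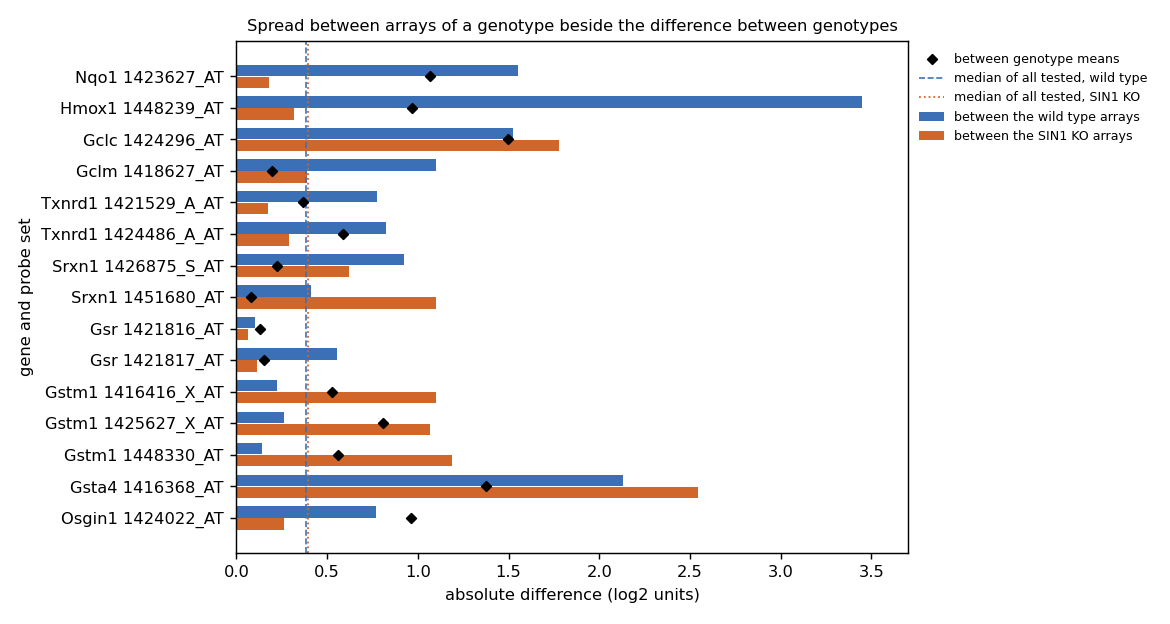
Absolute difference in log2 units (horizontal axis) for each member probe set (vertical axis): bars give the gap between the 2 arrays of wild type (blue) and of SIN1 KO (orange), diamonds the difference between genotype means, and the dashed and dotted lines the median gap of all tested probe sets. The diamond lies inside the longer bar for 13 of the 15 probe sets, the exceptions being Osgin1 and Gsr 1421816_AT. The same share over all probe sets was not computed.

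Glutathione reductase, Gsr, regenerates glutathione from its oxidised form. Its probe set 1421816_AT had the smallest gap of the 15 between arrays of a genotype, in both genotypes. It measured 7.86 and 7.96 on the wild type arrays and 8.01 and 8.07 on the SIN1 KO arrays. Its genotypes did not overlap, by 0.05, at a log2 fold change of 0.13 (SE 0.25, 95% interval -0.53 to 0.79, limma adjusted p 0.919), and they overlapped after cyclic loess. Probe set 1421817_AT measured 9.87 and 10.43 on the wild type arrays and 10.05 and 9.94 on the SIN1 KO arrays, overlapping, at -0.15 (SE 0.31, limma adjusted p 0.923). The sign of the latter turned to 0.17 with arrays scaled on the hybridisation controls, which moves the median of all probe sets to 0.36. The probe sets thus disagree in sign by amounts smaller than their errors. The 95% interval of 1421817_AT was -0.98 to 0.67, so the intervals of both probe sets leave out a 2-fold change in either direction.

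Thioredoxin reductase, Txnrd1, keeps thioredoxin reduced. Probe set 1424486_A_AT measured 8.56 and 7.73 on the wild type arrays and 7.70 and 7.41 on the SIN1 KO arrays. The genotypes were separated by 0.03 alone, and they overlapped after median centring. Probe set 1421529_A_AT measured 10.23 and 9.46 on the wild type arrays and 9.56 and 9.39 on the SIN1 KO arrays, with SIN1 KO 1 above wild type 2. The log2 fold changes were -0.59 (SE 0.38, limma adjusted p 0.82) and -0.37 (SE 0.36, limma adjusted p 0.84). Both had wild type 1 as the highest array, and without it they were -0.17 and 0.020.

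Sulfiredoxin, Srxn1, reactivates peroxiredoxins that have been over-oxidised. Probe set 1451680_AT measured 7.10 and 6.69 on the wild type arrays and 7.52 and 6.42 on the SIN1 KO arrays, with the SIN1 KO arrays on either side of wild type. Probe set 1426875_S_AT, whose suffix also marks probes able to bind other transcripts, measured 7.24 and 6.32 on the wild type arrays and 7.32 and 6.70 on the SIN1 KO arrays. Their log2 fold changes of 0.08 (SE 0.46, limma adjusted p 0.978) and 0.23 (SE 0.45, limma adjusted p 0.922) both turned negative when wild type 2 or SIN1 KO 1 was left out.

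**Figure D3:**
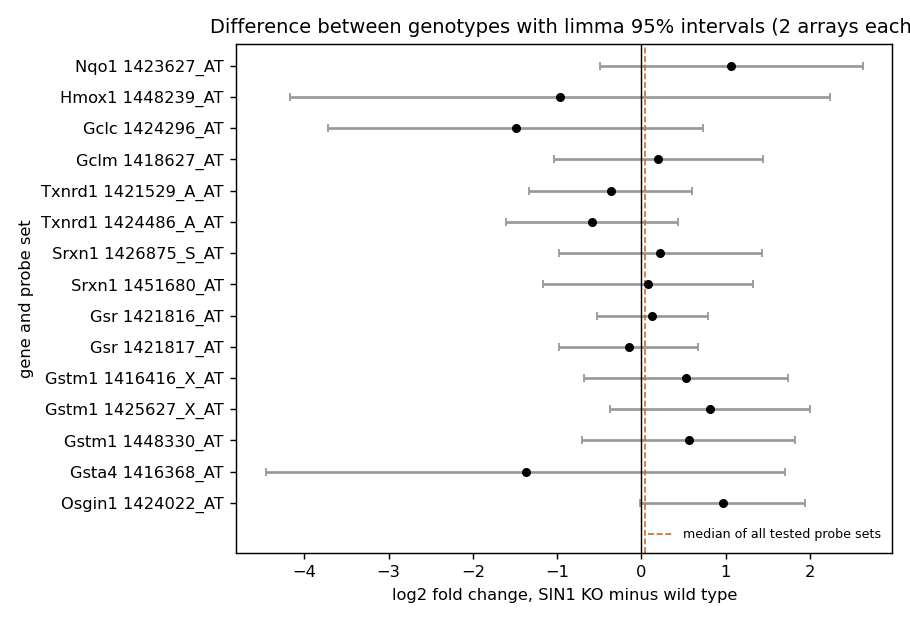
Log2 fold change, SIN1 KO minus wild type (horizontal axis), of each member probe set (vertical axis) with limma's 95% interval, from 2 arrays per genotype; the dashed line is the median of all tested probe sets, 0.04. All 15 intervals include 0, Osgin1 coming closest to leaving it out at -0.02 to 1.95.

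Several members differed widely between arrays of 1 genotype. Their median gap between the wild type arrays was 0.77, beside 0.38 over all probe sets, and between the SIN1 KO arrays 0.39, beside 0.40. The wild type arrays differed by 1 or more for 5 of the 15 members (Nqo1, Hmox1, Gclc, Gclm and Gsta4), and 16.5% of all probe sets did so. For the SIN1 KO arrays this held for 6 (Gclc, Srxn1 1451680_AT, the 3 of Gstm1 and Gsta4), against 14.1% of all. Wild type 1 exceeded wild type 2 in 11 of the 15 members and was the highest of the 4 arrays in 6, against 54.9% and 18.3% of all probe sets. SIN1 KO 1 exceeded SIN1 KO 2 in 9 of the 15, against 43.1% of all. These are descriptions of single arrays, and several members share a gene. The median level of all tested probe sets was 4.23 to 4.32 on the 4 arrays, near background, where RMA shrinks differences. All members but Nqo1 were at 6.20 or more. Shares among probe sets of a similar level were not computed, which also limits the shares given for single members.

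The intervals were wide. Their median half-width was 1.21, so a 2-fold difference was within reach of most: 10 of the 15 intervals include a 2-fold rise and 7 a 2-fold fall. The plot with arrays left out shows that 7 of the 15 kept their sign whichever array was removed: Nqo1, Gclc, Gsta4, Osgin1, Txnrd1 1424486_A_AT, Gsr 1421816_AT and Gstm1 1425627_X_AT. All of these but Gclc and Gsta4 had genotypes that did not overlap. Removing 1 array cannot change the sign of such a member. The share of all probe sets that kept their sign was not computed.

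**Figure D4:**
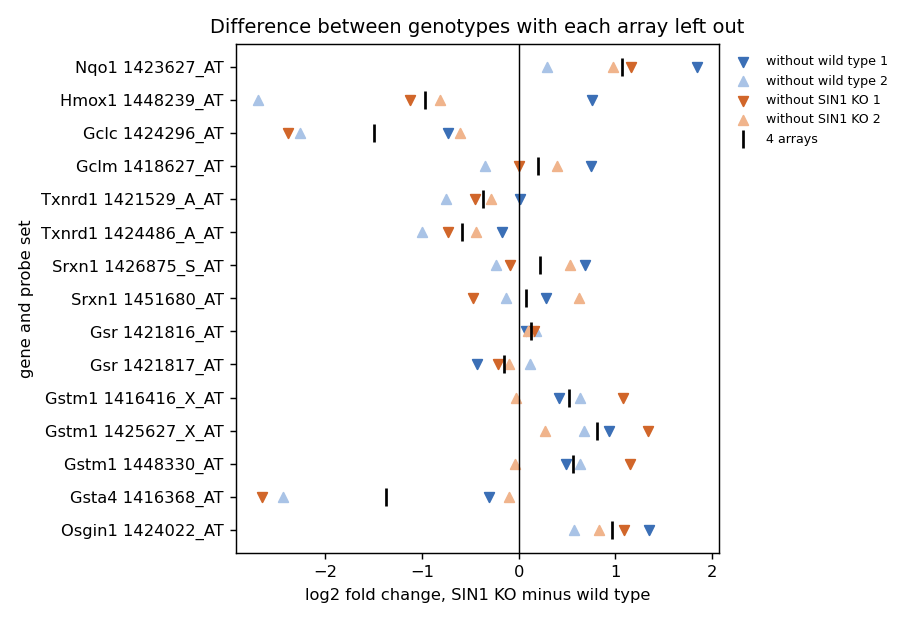
Log2 fold change, SIN1 KO minus wild type (horizontal axis), of each member probe set (vertical axis) from all 4 arrays (black bar) and with each array left out (triangles). Hmox1 runs from -2.69 without wild type 2 to 0.76 without wild type 1, while Osgin1 stays between 0.58 and 1.35. Members whose genotypes do not overlap, such as Osgin1, cannot change sign here.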

How the data were processed

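Total RNA of 2 wild type and 2 SIN1 KO samples was labelled with biotin and hybridised, per the labels' protocols. The authors deposited log2 values made with RMA (background correction, normalization between arrays and summary per probe set), per the submitters' processing notes. No source used here gives its version or settings, and the log2 scale was taken from the range of the values. RMA shrinks differences near background and makes the arrays' distributions alike, so a shift shared by most transcripts would not be seen.

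Groups and replicate numbers came from the sample titles. The 64 control probe sets were left out and the other 45037 fitted with limma 3.58.1 in R 4.3.3 (lmFit, eBayes without trend, 2 residual and 2.38 prior degrees of freedom), with Benjamini-Hochberg adjustment over all of them and a threshold of 0.05. Precision is limited by the 4 arrays, with a median standard error of 0.45 over the members and 0.33 over all probe sets. The fit was tested on simulated data with added changes larger than that of any member. This gives no measure of how often changes of the members' size would pass. The background level of an array was the highest of its 27 Bacillus subtilis controls. All 15 members are named. The members, lists and tests were chosen with earlier results of these data known. Further pathway genes and cell type markers had been listed by symbol, but the tables used here pair no other probe set with a gene, so they were not analysed here. Alternatives were median centring, cyclic loess, scaling to the 18 hybridisation controls, a filter at the median level, trended and robust priors, the replicate block, each array left out, 1 value per gene, omission of probe sets with suffix s or x, and the 95th percentile of the controls as background. Figures used matplotlib 3.10.9 in Python 3.11.15. No column was left unused.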

Additional observations from a re-analysis of the deposited data

How the results depend on the processing

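Members past limma's adjusted threshold were 0 in each direction under all alternatives run. A fit with the replicate block gave 0 and 0. Deviations of arrays sharing a number ran opposite ways (r = -0.415 across probe sets). With 2 arrays per genotype, this cannot settle whether the numbers pair the samples. The crossed pairing, added after the data were seen, also gave 0 and 0. With an array left out, the remaining one of its genotype is taken to vary like those of the other genotype. The members separated and higher in SIN1 KO were 3 to 6 under the other scalings and the filter, and 6 to 7 with an array left out (7 without wild type 1, 7 without wild type 2). Those separated and lower were 0 after median centring, 2 after cyclic loess (both Txnrd1 probe sets) and 0 after scaling to the hybridisation controls, and 1 to 6 with an array left out (2 without wild type 1, 6 without wild type 2, 5 without SIN1 KO 1), which by construction loosens the rule. Shares of all probe sets were computed for the main fit alone, so the counts under these alternatives cannot be set beside all probe sets. Variance priors and blocks cannot change these counts and were not run for them. The median log2 fold change of 0.13 was 0.45 when scaled to the hybridisation controls, which moves the median of all probe sets to 0.36. It was 0.11 after cyclic loess, 0.070 with 1 value per gene, -0.037 without suffixes s and x, and -0.13 to 0.41 with an array left out.

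Of the 60 member values with an array left out, 10 changed sign, which members whose genotypes did not overlap could not do. Of the 60 under other scalings, the filter and the background level 1 did: Gsr 1421817_AT, at 0.17 when scaled to the hybridisation controls. The filter's values are among the latter 60. The filter, priors and blocks leave these differences as they are and could not test their sign. The ranges of members that changed sign with an array left out were -2.69 to 0.76 for Hmox1, -0.35 to 0.75 for Gclm, -0.75 to 0.020 for Txnrd1 1421529_A_AT, -0.24 to 0.69 for Srxn1 1426875_S_AT, -0.47 to 0.63 for Srxn1 1451680_AT, -0.43 to 0.12 for Gsr 1421817_AT, -0.025 to 1.08 for Gstm1 1416416_X_AT and -0.033 to 1.15 for Gstm1 1448330_AT. The sign of each is unsettled. The cause was not tested. The count of members at background on an array was 1 at either background level.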
